A study of Mus musculus with 18 samples.

Results

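The Wnt module described here is a list of 55 genes: 17 ligands, 14 receptors and co-receptors, 9 secreted inhibitors, 4 genes of the R-spondin branch, 4 transcription factors, 3 genes of β-catenin and the complex that degrades it, and 4 target and feedback genes. Members were taken by gene symbol from a list of the pathway, which was drawn up with earlier results of these data known, and all 55 were found among the 55385 rows of the deposited expression tables. They were followed in hippocampi of C57BL/6 mice that were wild type (WT) or carried a conditional knockout (cKO) of Arid1a, the gene for a subunit of the BAF complex that remodels chromatin. Polyadenylated RNA of 3-week-old mice (P21) was sequenced in 2 libraries per genotype and that of embryos at day 16.5 (E16.5) in 3 per genotype, stated to be biological replicates. Chromatin immunoprecipitation sequencing (ChIP-seq) at 3 weeks used 1 library per genotype for each of H3K4me3, H3K27ac, H3K27me3 and input, with no replicates. Neither the cells and age in which Arid1a was deleted nor the Cre line is stated in the labels.

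Wnt proteins are secreted ligands that bind Frizzled receptors with LRP5 or LRP6, or ROR receptors, at the cell surface. In the canonical branch the destruction complex of Axin and APC is then inhibited, and β-catenin accumulates and acts with the TCF and LEF factors on targets such as Axin2, while secreted SFRP, DKK and WIF proteins hold the ligands or co-receptors back and R-spondins strengthen the signal. In the embryonic brain the cortical hem, a strip at the edge of the cortex, secretes several Wnt ligands, and this source is known to be needed for growth of the neighbouring hippocampus and its dentate gyrus.

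Each P21 library totalled between 20089631 and 20332148 estimated counts, and each E16.5 library between 17662335 and 19760764. Levels are given as CPM, counts scaled to 1000000 per library with library sizes adjusted by the TMM method, and are not compared between genes because gene length was not used. Changes are log2 ratios of cKO to WT with a standard error (SE), and were tested with edgeR over all genes of an age with p adjusted by Benjamini and Hochberg's method and 0.05 as the threshold. Arid1a itself fell at both ages, with a log2 change of -1.08 at P21 and -0.64 at E16.5 and no overlap between the genotypes. At P21 the 6 markers of dentate granule neurons summed to 461 and 496 CPM in WT and 230 and 237 CPM in cKO libraries, and 5 of the 6 fell. All 6 oligodendrocyte markers and 4 of 5 microglial markers fell as well, and 3 of 8 striatal markers rose. At this age the 10 markers of choroid plexus and ependyma summed to 1434 and 1198 CPM in the WT libraries, while cKO replicate 1 held 3651 CPM and cKO replicate 2 held 1056 CPM, mostly of Ttr. Foxj1 (1.22, SE 0.19, adjusted p = 0.0131) and Tmem212 (1.80, SE 0.38, adjusted p = 0.0353), genes of ciliated ependymal cells, rose, with both cKO libraries above WT, and the other 8 of this list did not pass. In these bulk samples fewer cells of a type and less RNA per cell cannot be told apart, and the part of these markers in the results below was not tested. A value given without a library shows only how a result depends on that library.

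At P21 the share of members that passed the test was near that of all genes. Of the 49 members with enough counts to test, 3 rose (Wnt10b, Wnt8b and Fzd2) and 1 fell (Ccnd1). Among all 17407 genes tested, 2.81% rose and 3.91% fell, 6.72% in all. The unadjusted p was under 0.05 for 12 members that were higher and 5 that were lower, against 11.7% and 13.2% of all genes. The median log2 change of the tested members was 0.15, against 0.01 for all genes, with 27 members above 0 and 22 below. Groups did not overlap for 16 members that were higher in cKO and 11 that were lower, against 28.2% and 27.9% of all genes, so the 27 members without overlap compare with 56.1% of all genes. DESeq2 called 2 members higher (Wnt10b and Fzd2) and 2 lower (Ccnd1 and Wnt7b), against 2.86% and 4.96% of all genes (7.83% in all). The members called changed with the library left out, and only Fzd2 was called each time. Each such fit leaves 1 library in a group, and the number of calls over all genes moved with the library as well. With upper-quartile scaling 52.3% of all genes called were higher in cKO, against 41.8% with TMM. The 6 members that were not tested had few counts in each library: Wnt1 4 to 14, Wnt3a 0 to 1, Wnt6 3 to 15, Dkk1 0 to 2, Dkk2 0 to 9 and Sp5 3 to 6.

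**Figure D1:**
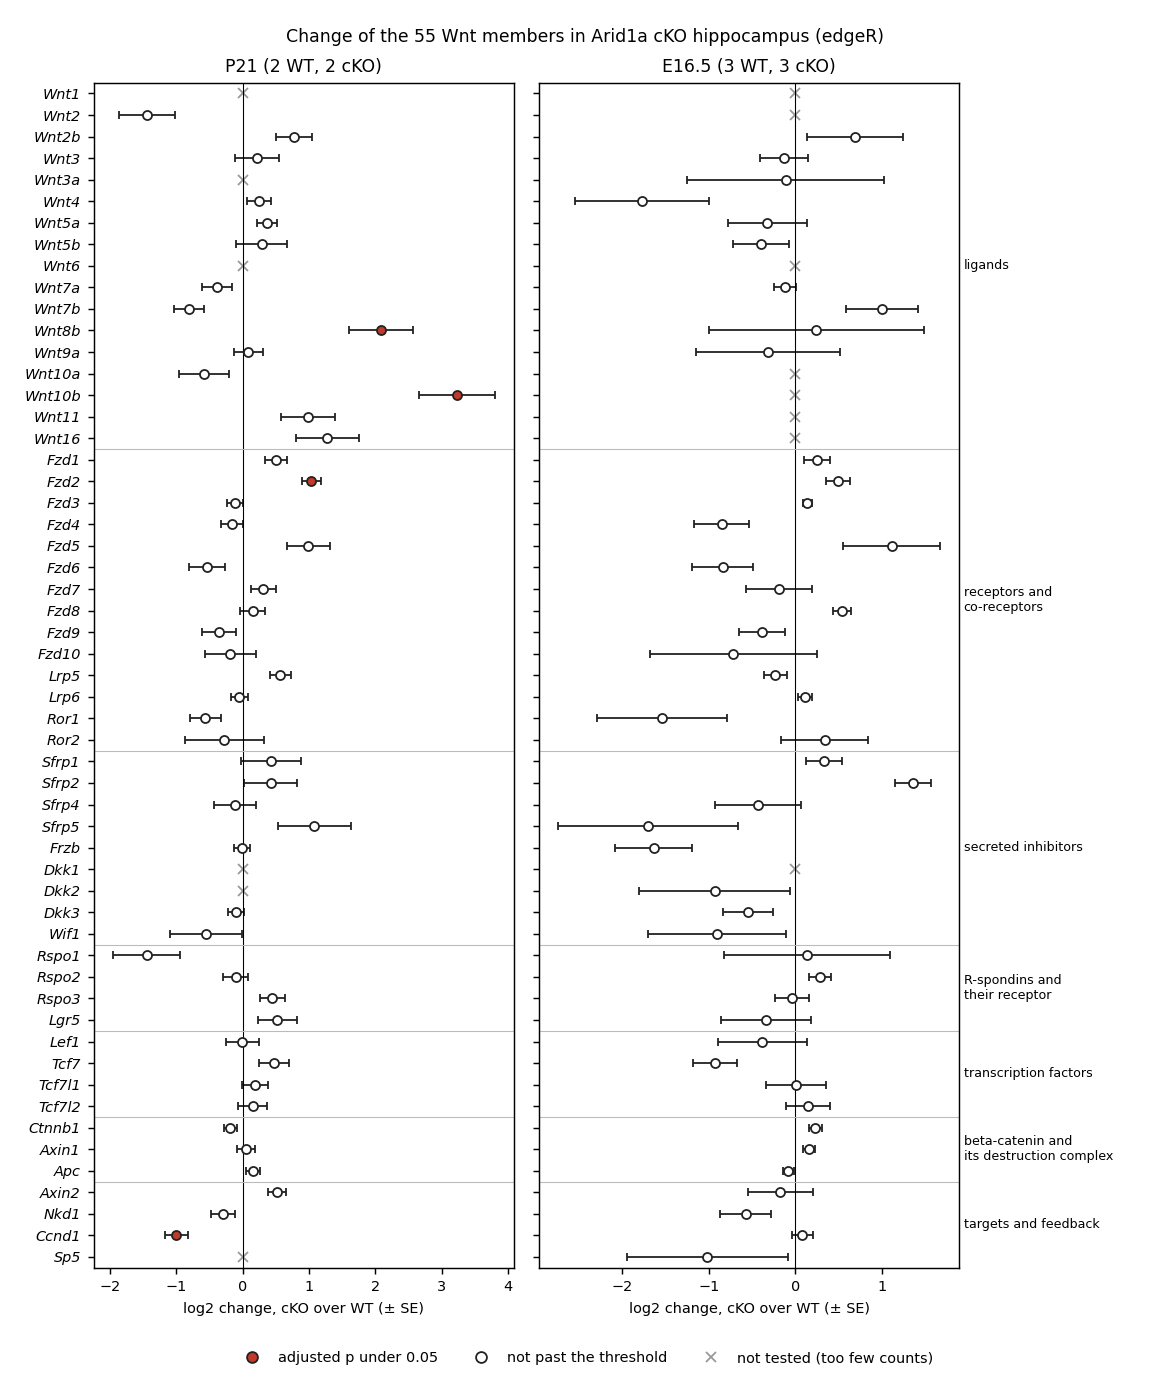
Log2 change of each of the 55 members in cKO over WT hippocampus, by role, at P21 (left) and E16.5 (right), with SE as error bars; the 2 panels have their own horizontal scales. Filled points passed the threshold (Wnt10b, Wnt8b, Fzd2 and Ccnd1 at P21, none at E16.5), open points did not, and crosses at 0 mark members with too few counts to test, which have no measured change.

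Among the ligands, Wnt10b and Wnt8b rose from very low levels. Wnt10b (chromosome 15, 98770712 to 98778206, GRCm38.p6), a canonical ligand best known from bone and fat, stood at 0.451 CPM in both WT libraries and at 6.31 and 2.26 CPM in the cKO libraries. These levels rest on 9 counts in each WT library and on 131 and 45 counts in the cKO libraries. The WT counts were below the limit of the filter on low counts, so Wnt10b was tested only because its cKO libraries were high. Both cKO libraries lay above both WT libraries, and cKO replicate 1 was the higher. The log2 change was 3.23 (SE 0.57, adjusted p = 0.0249), and the call was lost without WT replicate 1 (adjusted p = 0.117) or WT replicate 2 (adjusted p = 0.161).

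Wnt8b (chromosome 19, 44493472 to 44514273), a ligand of the cortical hem and the medial wall of the embryonic cortex, had 14 and 9 counts in the WT libraries and 69 and 32 in the cKO libraries, or 0.701 and 0.451 CPM against 3.33 and 1.60 CPM. WT replicate 2, with 9 counts, was below the limit of the filter on low counts, so Wnt8b too entered the test through its cKO libraries. The groups did not overlap, and cKO replicate 1 was again the higher. The log2 change was 2.09 (SE 0.48, adjusted p = 0.044), while DESeq2 gave an adjusted p of 0.0502. The call was lost without cKO replicate 1 (1.47, adjusted p = 0.0962) and without WT replicate 2 (1.80, adjusted p = 0.184), and in the fit of all 10 libraries (adjusted p = 0.553). Lmx1a, a transcription factor of the hem and roof plate, had the same order of libraries, at 1.25 and 0.702 CPM in WT and 3.86 and 1.76 CPM in cKO, without passing the threshold (adjusted p = 0.104). Of the 4 tested hem and Cajal-Retzius markers outside the module none passed, but 3 had both cKO libraries above both WT libraries: Lmx1a, Trp73 (0.80, SE 0.20, adjusted p = 0.054) and Ebf3 (1.14, SE 0.40, adjusted p = 0.134). The fourth, Reln, was lower in both (-0.38, SE 0.12, adjusted p = 0.103) and made up most of the list's sum of 52.3 and 53.0 CPM in WT and 46.5 and 52.7 CPM in cKO libraries. The part of these markers in the rise of Wnt8b was not tested.

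The stretches from 250 bases before to 50 bases after the listed starts of both ligands are shown because these were the members with the highest log2 changes among those called and because their starts differed in histone marks, described below. They come from RefSeq for GRCm38.p6, at chr15:98778101-98778400 on the minus strand for Wnt10b and chr19:44493222-44493521 on the plus strand for Wnt8b. Capitals would mark a heptamer of the kind that TCF and LEF factors bind, CTTTGAA or the same with AT, TA or TT as its last bases, on either strand, and neither stretch holds one.
Wnt10b: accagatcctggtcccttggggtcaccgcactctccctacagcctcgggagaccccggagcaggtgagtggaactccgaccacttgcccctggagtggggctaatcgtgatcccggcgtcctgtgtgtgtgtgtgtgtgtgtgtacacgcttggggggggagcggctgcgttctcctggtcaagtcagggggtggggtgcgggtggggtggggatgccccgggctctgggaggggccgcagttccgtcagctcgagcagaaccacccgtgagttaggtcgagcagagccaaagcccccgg
Wnt8b: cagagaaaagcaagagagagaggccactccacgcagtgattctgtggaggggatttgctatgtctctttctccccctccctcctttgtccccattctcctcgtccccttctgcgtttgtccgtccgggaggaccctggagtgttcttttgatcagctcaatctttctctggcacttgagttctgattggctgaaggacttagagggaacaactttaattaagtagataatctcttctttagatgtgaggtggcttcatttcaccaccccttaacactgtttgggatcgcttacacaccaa

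The other hem ligands did not pass at P21. Wnt2b was at 2.05 and 2.56 CPM in WT and 4.34 and 3.56 CPM in cKO libraries (log2 change 0.78, SE 0.28, adjusted p = 0.133). Wnt5a, a ligand known mainly for β-catenin-independent signalling, was at 17.5 and 14.4 CPM in WT and 21.5 and 19.8 CPM in cKO libraries (0.37, SE 0.15, adjusted p = 0.174). For both genes each cKO library lay above each WT library. Wnt3a, the hem ligand whose loss abolishes the hippocampus in mice, had at most 1 count in any P21 library. Wnt7b was chosen for description after its values were seen, because DESeq2 called it: it was at 46.1 and 37.5 CPM in WT and 18.6 and 29.1 CPM in cKO libraries, with both cKO libraries below both WT libraries (-0.81, SE 0.23, adjusted p = 0.0919; DESeq2 adjusted p = 0.0112). Over the 14 tested ligands the log2 changes ran from -1.44 (Wnt2) to 3.23 (Wnt10b), with a median of 0.27.

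Fzd2 was the 1 receptor that passed. Fzd2 (chromosome 11, 102604431 to 102608058), a Frizzled receptor used by canonical and non-canonical ligands, was at 14.1 and 12.4 CPM in WT and 25.0 and 29.2 CPM in cKO libraries. Both cKO libraries were above both WT libraries, with a log2 change of 1.03 (SE 0.14, adjusted p = 0.0091). It stayed past the threshold when each of the 4 libraries was left out in turn, with log2 changes of 0.92 to 1.14 over all alternatives. The other 13 receptors and co-receptors did not pass, although 3 of them, described after their values were seen, had an unadjusted p under 0.05 and both cKO libraries above both WT libraries. Lrp5, the co-receptor that binds Wnt beside Frizzled, was at 13.0 and 11.5 CPM in WT and 19.7 and 16.7 CPM in cKO libraries (0.57, SE 0.16, adjusted p = 0.0716). Fzd1 was at 13.0 and 14.2 CPM against 21.5 and 17.1 CPM (0.51, SE 0.16, adjusted p = 0.105), and Fzd5 at 2.254 and 1.705 CPM against 4.77 and 3.11 CPM (0.99, SE 0.32, adjusted p = 0.110). In each of these 3 genes cKO replicate 1 was the higher. Ror1, a receptor tyrosine kinase for Wnt5a that was also chosen after its values were seen, was at 4.96 and 5.92 CPM in WT and 4.05 and 3.31 CPM in cKO libraries, with no overlap (-0.56, SE 0.24, adjusted p = 0.193). Over all 14 the log2 changes ran from -0.56 (Ror1) to 1.03, with a median of -0.08.

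None of the 7 tested secreted inhibitors and none of the 4 genes of the R-spondin branch passed at P21. Sfrp5, which binds Wnt ligands outside the cell, had the lowest p among the inhibitors, at 1.20 and 0.702 CPM in WT and 2.99 and 1.05 CPM in cKO libraries (1.08, SE 0.55, adjusted p = 0.273). It passed without cKO replicate 2 (1.64, adjusted p = 0.0414). Its groups overlapped, and its high library was cKO replicate 1, the library with 3429 CPM of the choroid plexus gene Ttr against 949.5 to 1304 CPM in the other 3. Rspo1, a secreted amplifier of Wnt signalling, was at 1.65 and 1.70 CPM in WT and 0.916 and 0.301 CPM in cKO libraries (-1.45, SE 0.51, adjusted p = 0.132). Both of its cKO libraries lay below WT, and it passed without cKO replicate 1 (-2.45, adjusted p = 0.0141).

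The nuclear end of the pathway changed in 1 gene. Ccnd1 (chromosome 7, 144929931 to 144939831), which encodes cyclin D1 and drives entry into S phase, was at 48.6 and 34.5 CPM in WT and 21.5 and 20.1 CPM in cKO libraries. Both cKO libraries lay below both WT libraries, and the WT libraries differed more from each other than the cKO libraries did. The log2 change was -0.9998 (SE 0.17, adjusted p = 0.0192), lost without cKO replicate 1 (adjusted p = 0.0572) or cKO replicate 2 (adjusted p = 0.09). Reads of Ccnd1 and of the gene LTO1, which overlaps it, cannot be told apart if strand was not used in counting, and the same holds for Wnt2b, Tcf7 and Wnt7b, which also overlap other genes.

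Axin2, the feedback inhibitor often read as a gauge of canonical signalling, was at 30.3 and 25.5 CPM in WT and 42.2 and 37.6 CPM in cKO libraries. Both cKO libraries were above WT, with a log2 change of 0.52 (SE 0.13) that missed the threshold (adjusted p = 0.0598). It passed without cKO replicate 1 (adjusted p = 0.0473), without cKO replicate 2 (adjusted p = 0.0241) and with upper-quartile scaling (adjusted p = 0.0496), and over all alternatives its adjusted p ran from 0.0151 to 0.573. Lef1, the β-catenin partner needed for dentate granule cells, was at 6.21 and 5.57 CPM in WT and 7.04 and 4.71 CPM in cKO libraries, so that the groups overlapped (-0.00, SE 0.25, adjusted p = 0.997). Tcf7 had the lowest p of the 4 transcription factors, at 3.91 and 3.46 CPM against 5.21 and 5.01 CPM (0.47, SE 0.22, adjusted p = 0.238), and Ctnnb1, which encodes β-catenin, was at 409 and 382 CPM in WT and 357 and 339 CPM in cKO libraries (-0.18, SE 0.10, adjusted p = 0.320). For Tcf7 both cKO libraries were above WT, and for Ctnnb1 both were below.

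The stretch around the listed Axin2 start, chr11:108920099-108920398 on the plus strand, is shown because H3K4me3 and H3K27ac peaks lay within 1 kb of it in each genotype, as described below. None of the heptamers is in this window, which says nothing of sites elsewhere in the gene.
Axin2: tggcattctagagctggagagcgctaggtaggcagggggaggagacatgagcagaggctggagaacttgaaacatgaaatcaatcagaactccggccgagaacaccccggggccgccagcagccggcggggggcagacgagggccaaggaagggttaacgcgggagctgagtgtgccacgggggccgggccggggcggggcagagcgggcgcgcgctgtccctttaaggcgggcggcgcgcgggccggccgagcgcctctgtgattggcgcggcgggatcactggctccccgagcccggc

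**Figure D2:**
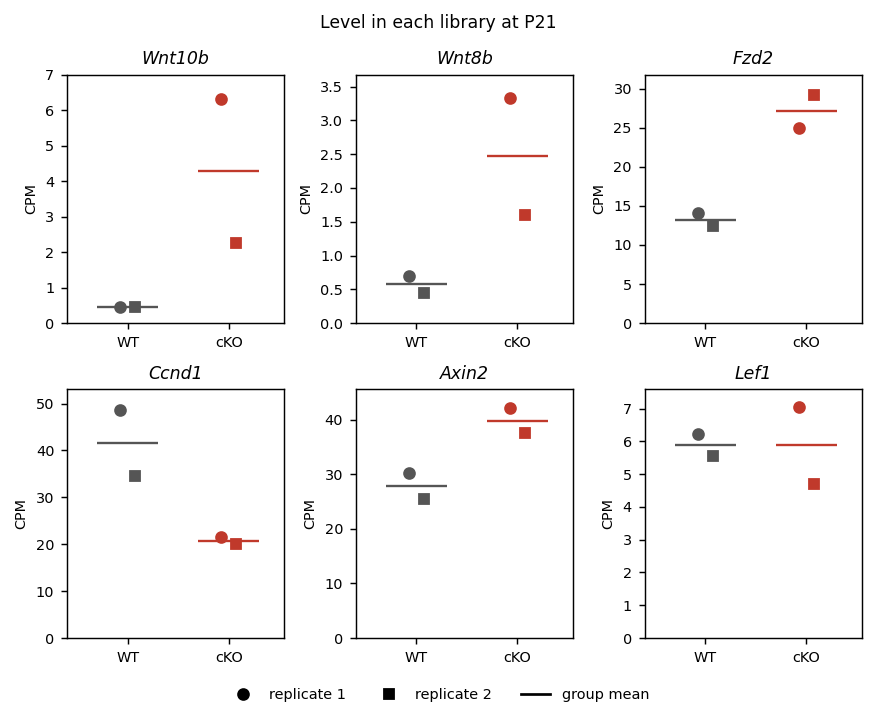
Level in CPM of 6 members in each P21 library (points, shaped by replicate) with the group mean as a line, WT in grey and cKO in red; each vertical axis starts at 0. For Wnt10b, Wnt8b, Fzd2 and Axin2 both cKO libraries lie above both WT libraries, for Ccnd1 both lie below, and for Lef1 the groups overlap.

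Beside the members, 64 other genes of the Wnt pathway were counted at P21. Of 59 tested, none rose and 2 fell, against 2.81% and 3.91% of all genes. The unadjusted p was under 0.05 for 4 higher and 11 lower genes (11.7% and 13.2% of all genes), DESeq2 called 0 higher and 3 lower (2.86% and 4.96%), and the list had a median log2 change of -0.10, against 0.01 for all genes. The 2 that fell were Lgr6, an R-spondin receptor, at 21.7 ± 0.904 CPM in WT and 9.84 ± 1.15 CPM in cKO (SD, n = 2 each; -1.14, SE 0.15, adjusted p = 0.00778), and Dact1, which binds Dishevelled, at 12.03 ± 1.12 against 6.94 ± 1.02 CPM (-0.79, SE 0.19, adjusted p = 0.0468). Lgr6 lost its call in the fit of all 10 libraries (adjusted p = 0.153). The call of Dact1 was kept in 4 of 10 alternatives; it was lost without WT replicate 1 (adjusted p = 0.222), WT replicate 2 (adjusted p = 0.138) or cKO replicate 2 (adjusted p = 0.0644), and in DESeq2 (adjusted p = 0.0554), with upper-quartile scaling (adjusted p = 0.0600) and with the replicate block (adjusted p = 0.0619).

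At E16.5 libraries of both genotypes stood apart, cKO replicate 1 in the most Wnt members, so these values come before the results. In cKO replicate 1, 16 of the 55 members were at least 2-fold below both other cKO libraries, where both of those had at least 10 counts, against 4.94% of all genes. They were Wnt2b, Wnt3a, Wnt5a, Wnt8b, Wnt9a, Fzd7, Fzd10, Ror2, Sfrp4, Dkk1, Dkk2, Wif1, Rspo1, Lef1, Axin2 and Sp5, and 9 of them were at least 4-fold below (1.57% of all genes). Wnt7b and Lgr5 were at least 2-fold higher there than in the other cKO libraries. No member was 2-fold below the others of its group in cKO replicate 2 or cKO replicate 3, but in cKO replicate 3 Wnt4, Sfrp5 and Wif1 were at least 2-fold above both other cKO libraries (4.65% of all genes), Wnt4 at least 4-fold (1.53%). The 5 hem and Cajal-Retzius markers outside the module summed to 228 CPM in cKO replicate 1, 358 and 309 CPM in the other cKO libraries and 367 to 416 CPM in WT, and Lmx1a was at 0.168 CPM against 7.35 and 11.7 CPM. Dentate markers summed to 26.98, 76.5 and 76.1 CPM in cKO and 110 to 130 CPM in WT libraries, and pyramidal markers to 1424, 818 and 678 CPM against 627 to 826 CPM. On the WT side replicate 1 had Wnt4, Wnt6, Wnt11, Wnt16, Ror1, Ror2 and Dkk2 at least 2-fold above both other WT libraries (3.32% of all genes) and 1227 CPM of the 9 meningeal markers, against 144 and 244 CPM in WT and 15.5, 29.5 and 88.5 CPM in cKO. Choroid plexus and ependymal markers summed to 4923, 3321 and 47.8 CPM in WT replicates 1 to 3 and 9.48, 50.8 and 2558 CPM in cKO replicates 1 to 3. The hem and Cajal-Retzius, dentate and meningeal sums lay lower in every cKO library than in every WT library. The same held for astrocyte markers, at 489 to 509 CPM in WT and 202 to 348 CPM in cKO. It also held for endothelial (157 to 370.1 against 111 to 127 CPM) and microglial markers (53.6 to 107 against 25.9 to 37.7 CPM). Striatal marker sums did not overlap either and were higher in cKO (33.1 to 67.7 against 74.8 to 122 CPM). No marker of these lists passed the threshold at E16.5, and their part in the members' values was not tested.

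No member passed the threshold at E16.5. Of 47 tested, 5 higher and 3 lower members had an unadjusted p under 0.05, and DESeq2 called 4 higher (Sfrp2, Fzd8, Fzd2 and Ctnnb1) and 3 lower (Tcf7, Frzb and Wnt6). Among all 16958 genes edgeR called 0.0118% higher and 0.112% lower (0.124% in all), the unadjusted p gave 9.13% and 11.5%, and DESeq2 called 2.22% and 4.50% (6.72% in all). The median log2 change was -0.13, against -0.01 for all genes, with 19 members above 0 and 28 below. Groups did not overlap for 7 members higher in cKO and 6 lower, against 14.0% and 15.3% of all genes (29.2% in all). Without cKO replicate 1 no member passed either, and 9 genes in all did. The 8 members not tested were Wnt1 (0 to 4 counts), Wnt2 (0 to 5), Wnt6 (0 to 141), Wnt10a (1 to 8), Wnt10b (0 to 3), Wnt11 (1 to 24), Wnt16 (1 to 20) and Dkk1 (0 to 42).

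In the hem ligands cKO replicate 1 lay below the other 5 libraries. Wnt8b was at 9.89, 9.71 and 11.5 CPM in WT replicates 1 to 3 and at 0, 19.0 and 17.8 CPM in cKO replicates 1 to 3. Both cKO replicates 2 and 3 were above every WT library, and cKO replicate 1 had no count (0.24, SE 1.24, adjusted p = 0.921). Without cKO replicate 1 the change was 0.85 (SE 0.13, unadjusted p = 0.000667), which did not pass the threshold (adjusted p = 0.109). Wnt2b, too, was lowest in cKO replicate 1 and above every WT library in cKO replicates 2 and 3, at 3.89, 3.08 and 3.13 CPM in WT and 1.57, 7.01 and 7.70 CPM in cKO (0.69, SE 0.56, adjusted p = 0.502; without cKO replicate 1, 1.15 and adjusted p = 0.129).

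Wnt3a was at 3.84, 2.47 and 2.26 CPM in WT and 0, 3.90 and 3.998 CPM in cKO libraries (-0.11, SE 1.14, adjusted p = 0.963; without cKO replicate 1, 0.49 and adjusted p = 0.466). Wnt5a was at 47.1, 36.0 and 40.5 CPM in WT and 12.3, 44.8 and 41.7 CPM in cKO libraries (-0.32, SE 0.45, adjusted p = 0.700; without cKO replicate 1, 0.09 and adjusted p = 0.757). For both ligands cKO replicate 1 was the lowest of all 6 libraries, while cKO replicates 2 and 3 lay in or near the WT range.

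Lef1 was at 45.6, 32.8 and 36.0 CPM in WT and 9.25, 42.6 and 36.0 CPM in cKO libraries (-0.38, SE 0.52, adjusted p = 0.690; without cKO replicate 1, 0.06 and adjusted p = 0.876). Axin2 was at 89.7, 60.3 and 57.9 CPM in WT and 30.8, 74.1 and 79.1 CPM in cKO libraries (-0.18, SE 0.37, adjusted p = 0.807; without cKO replicate 1, 0.17 and adjusted p = 0.737). For these 2 nuclear readouts of the canonical branch, too, cKO replicate 1 was below every other library and the remaining cKO libraries were within the WT range. The same library was low in members of other roles, chosen after their values were seen. Fzd10, a Frizzled receptor, was at 16.7, 9.45 and 9.44 CPM in WT and 0.336, 11.2 and 10.1 CPM in cKO libraries. Rspo1 was at 6.15, 5.19 and 5.69 CPM in WT and 0.280, 9.84 and 8.59 CPM in cKO libraries, and Sp5 at 11.7, 6.16 and 7.59 CPM against 0.224, 5.77 and 6.55 CPM. For all 3 the other cKO libraries lay near, within or above the WT range, and none passed (adjusted p = 0.686, 0.944 and 0.553). The low levels of the hem ligands, Lef1 and Axin2 were thus those of 1 of 3 cKO libraries. Dentate sums and hem and Cajal-Retzius sums, the latter mostly Reln, were below WT in all 3 cKO libraries and lowest in cKO replicate 1. Lmx1a, Trp73 and Ebf3 were below every WT library only in cKO replicate 1. The part of these markers in the members' low levels was not tested.

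**Figure D3:**
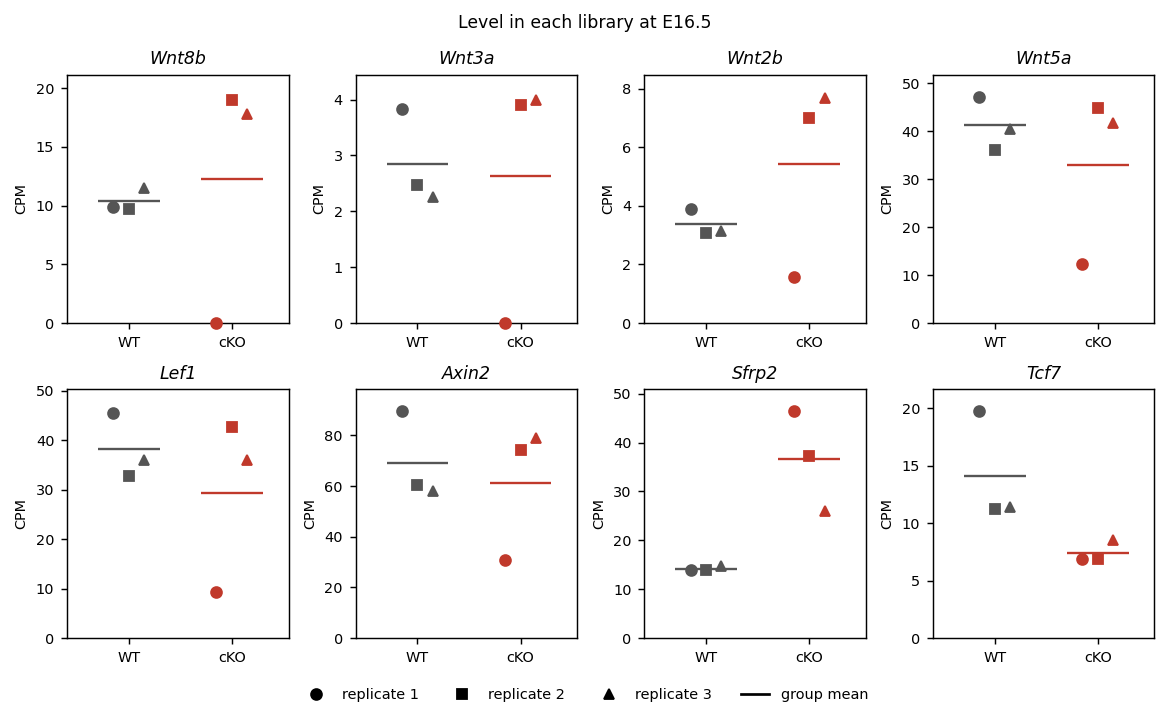
Level in CPM of 8 members in each E16.5 library (points, shaped by replicate) with the group mean as a line, WT in grey and cKO in red; each vertical axis starts at 0. For Wnt8b, Wnt3a, Wnt2b, Wnt5a, Lef1 and Axin2 cKO replicate 1 (circle) lies below the other 5 libraries, while for Sfrp2 all 3 cKO libraries lie above and for Tcf7 all 3 lie below the WT libraries.

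Apart from the pattern of cKO replicate 1, 13 of 47 tested members had cKO libraries all on 1 side of WT. This is near the share of all genes (29.2%). Sfrp2, a secreted inhibitor expressed by cortical progenitors, was at 13.9, 13.9 and 14.8 CPM in WT and 46.4, 37.3 and 25.9 CPM in cKO libraries. All cKO libraries were above all WT libraries, with a log2 change of 1.36 (SE 0.21, adjusted p = 0.104; without cKO replicate 1, 1.17 and adjusted p = 0.0981). It passed without cKO replicate 3 (1.56, adjusted p = 0.0367), without the filter on low counts (adjusted p = 0.0424), in the fit of all 10 libraries (adjusted p = 0.0304) and in DESeq2 (adjusted p = 7.45e-07).

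Among the receptors Fzd8 had the lowest p, at 20.04, 22.7 and 20.9 CPM in WT and 34.5, 29.1 and 28.9 CPM in cKO libraries (0.54, SE 0.10, adjusted p = 0.131). Fzd2 was at 64.6, 47.7 and 48.1 CPM in WT and 69.8, 82.5 and 73.7 CPM in cKO libraries (0.50, SE 0.14, adjusted p = 0.166). Both Frizzled genes had every cKO library above every WT library; for Fzd2, which rose at P21, this was the same direction at both ages.

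Tcf7, the TCF1 gene, was at 19.8, 11.2 and 11.4 CPM in WT and 6.84, 6.90 and 8.49 CPM in cKO libraries (-0.93, SE 0.26, adjusted p = 0.165). Frzb, a secreted inhibitor of the SFRP family chosen after its values were seen, was at 7.89, 3.54 and 4.21 CPM in WT and 0.953, 2.26 and 1.80 CPM in cKO libraries (-1.64, SE 0.44, adjusted p = 0.163). Every cKO library was below every WT library for these 2 genes. Both were highest in WT replicate 1, the library with 1227 CPM of meningeal markers, whose part in these changes was not tested. Wnt7b, which had the lowest p among the ligands, was at 126, 119 and 179 CPM in WT and 474, 194 and 179 CPM in cKO libraries (0.998, SE 0.41, adjusted p = 0.246; without cKO replicate 1, 0.42 and adjusted p = 0.366), so that its height rested on cKO replicate 1.

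In the remaining roles the members with the lowest p did not pass either. Ctnnb1 was at 876, 785 and 831 CPM in WT and 955, 1033 and 938 CPM in cKO libraries, with no overlap (0.23, SE 0.08, adjusted p = 0.196). Rspo2, a secreted R-spondin, was at 23.2, 16.9 and 18.2 CPM in WT and 22.9, 24.5 and 23.6 CPM in cKO libraries (0.28, SE 0.13, adjusted p = 0.275). Nkd1, a feedback inhibitor that binds Dishevelled, was at 54.3, 31.995 and 33.9 CPM in WT and 18.1, 31.4 and 31.4 CPM in cKO libraries (-0.57, SE 0.29, adjusted p = 0.318). Only Rspo2 of these 3 had overlapping groups. Of 61 tested genes of the wider pathway none passed. An unadjusted p under 0.05 was found for 9 higher and 9 lower ones (9.13% and 11.5% of all genes), and DESeq2 called 3 higher and 5 lower (2.22% and 4.50%).

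The difference between the cKO effects at the 2 ages, tested in 1 fit of all 10 libraries, passed the threshold for no member. Among all 18979 genes 0.427% had a higher and 0.738% a lower effect at P21 (1.16% in all). The unadjusted p was under 0.05 for 6 members on each side (9.57% and 10.5% of all genes), and DESeq2 called 3 higher and 2 lower (2.54% and 4.55%, 7.08% in all). With upper-quartile scaling 50% of the calls over all genes were on the higher side, against 36.7% with TMM. Ccnd1 came nearest: the difference was -1.12 (SE 0.23, adjusted p = 0.059), with Ccnd1 at 65.7, 51.6 and 51.4 CPM in WT and 65.3, 55.4 and 57.4 CPM in cKO libraries at E16.5, where the groups overlapped (0.08, SE 0.12). It passed with the DESeq2 size factors in edgeR (adjusted p = 0.0483), without the filter (adjusted p = 0.0269) and in DESeq2 (adjusted p = 0.0006). For Fzd2 (0.50, adjusted p = 0.247), Wnt10b (2.47, adjusted p = 0.335), Wnt8b (1.80, adjusted p = 0.650), Axin2 (0.65, adjusted p = 0.526) and Lef1 (0.34, adjusted p = 0.845) the difference did not pass, so their effects are not shown to differ between the ages, and for Wnt10b the E16.5 side holds 0 to 3 counts per library. The differences of Wnt8b, Axin2 and Lef1 include cKO replicate 1 of E16.5. Without E16.5 cKO replicate 3 a single member, Wnt4, passed. In the wider pathway 1 of 61 tested genes passed, the Dishevelled-binding inhibitor Nkd2 (1.48, SE 0.24, adjusted p = 0.0332).

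In WT hippocampus many members were lower at P21 than at E16.5. In the fit of all 10 libraries 25 of 54 tested members were lower and 7 higher at P21, against 32.6% and 27.8% of all genes (60.4% in all). The unadjusted p was under 0.05 for 27 lower and 8 higher members, against 35.0% and 29.7% of all genes, and DESeq2 called 25 lower and 8 higher, against 22.4% and 23.2% (45.6% in all). The median log2 change of the members was -1.01, against -0.12 over all genes with TMM and -0.02 with the DESeq2 size factors. The transcription factors and targets were mostly lower: Lef1 went from 36.2 ± 6.31 to 6.35 ± 0.543 CPM (-2.51, SE 0.59, adjusted p = 0.00598) and Axin2 from 65.7 ± 16.7 to 30.1 ± 3.89 CPM (-1.13, SE 0.38, adjusted p = 0.0332), each as mean ± SD with n = 3 at E16.5 and n = 2 at P21. The call of Axin2 was lost without P21 WT replicate 1 (adjusted p = 0.0944), P21 WT replicate 2 (adjusted p = 0.164) or E16.5 WT replicate 1 (adjusted p = 0.0927). Sp5, a zinc-finger factor induced by β-catenin, had 120 to 222 counts in the E16.5 WT libraries and 3 and 4 in those of P21 (adjusted p = 0.00647; without P21 WT replicate 2, adjusted p = 0.0549).

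Receptors fell with age in 8 of 14 cases and rose in 2. Fzd1 went from 93.2 ± 16.9 to 14.7 ± 0.849 CPM (-2.67, SE 0.19, adjusted p = 3.55e-06) and Fzd2 from 50.7 ± 9.14 to 14.3 ± 1.40 CPM (-1.83, SE 0.17). The inhibitors split: Sfrp2 fell from 13.5 ± 0.562 to 1.08 ± 0.161 CPM (-3.63, SE 0.30), while Dkk3, a divergent Dickkopf gene of mature neurons, rose from 56.4 ± 5.42 to 354 ± 1.05 CPM (2.65, SE 0.29) and Frzb from 4.95 ± 2.22 to 24.7 ± 0.164 CPM (2.32, SE 0.36). These genes other than Lef1, Axin2 and Fzd2 were chosen as examples after their values were seen. Among the hem ligands Wnt3a fell, from 44 to 73 counts in the E16.5 WT libraries to at most 1 at P21 (adjusted p = 0.0219; 0.0861 without P21 WT replicate 1 and 0.124 without P21 WT replicate 2). Wnt8b (-3.97, SE 1.59, adjusted p = 0.0591), Wnt5a (-1.18, SE 0.47, adjusted p = 0.0568) and Wnt2b (-0.36, SE 0.55, adjusted p = 0.595) did not pass. Without cKO replicate 1 of E16.5, which enters this contrast through the shared estimate of spread, Wnt8b (adjusted p = 2.01e-05) and Wnt5a (adjusted p = 0.000143) passed. Age and any difference between the separately deposited tables cannot be told apart.

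Set against this course, the members that rose in the P21 cKO did not all have their higher WT levels at the same age. Fzd2 and Wnt8b had their higher WT levels at E16.5, so their P21 cKO levels lay toward the embryonic side, although Fzd2 at 25.0 and 29.2 CPM and Wnt8b at 3.33 and 1.60 CPM stayed below the E16.5 WT libraries of the same gene on scales set separately within each age. Wnt10b had 0 to 3 counts in every E16.5 library and was highest in the P21 cKO libraries. The edgeR fit called it higher at P21 in WT (adjusted p = 0.00941), from the few WT counts given above. It passed the filter on low counts only through the P21 cKO libraries, so this call is not read as a rise with age. Ccnd1 did not pass between the ages in WT (-0.25, SE 0.16, adjusted p = 0.216).

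Histone marks were read as peaks called by the authors within 1 kb of a listed gene start, for the 37 members that have a start in the RefSeq table, or within 1 kb of the gene from end to end for the other 18. H3K4me3 marks active or poised promoters, H3K27ac marks active promoters and enhancers, and H3K27me3 is the mark of Polycomb repression; a start with both H3K4me3 and H3K27me3 is often called bivalent. With 1 library per mark and genotype no test was possible, and the cKO lists were longer for every mark over the whole genome, with 28234 against 25145 peaks of H3K4me3, 24065 against 13006 of H3K27ac and 15659 against 4124 of H3K27me3. Each count of members is therefore set beside the share of protein-coding genes with the same peak.

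Polycomb marking was common at the Wnt members in both genotypes. In WT, 19 of 37 members had an H3K27me3 peak at the start, against 3.33% of protein-coding genes, and in cKO 30 of 37, against 12.4%. H3K4me3 was at 30 members in WT and 31 in cKO (60.3% and 61.7% of genes). Both marks together were at 13 starts in WT (1.79% of genes) and 25 in cKO (9.82%); bulk tissue does not show whether the marks lay on the same chromosomes. Of the WT group, 6 members had H3K27me3 without H3K4me3, namely Wnt1, Wnt3a, Wnt8b, Wnt10b, Sfrp5 and Dkk1, and the same genes except Wnt10b made up this class in cKO. All 19 members with H3K27me3 in WT kept a peak in cKO, and 11 had one only in the cKO list (Wnt2, Wnt4, Wnt5b, Wnt7a, Wnt9a, Wnt11, Fzd5, Fzd7, Fzd9, Tcf7 and Tcf7l1), against 9.13% of all genes. The 7 members with no H3K27me3 at the start in either genotype were Fzd1, Fzd4, Ror1, Frzb, Ctnnb1, Axin2 and Nkd1.

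H3K27ac was rare at these starts in WT. It was at 2 of 37, Ctnnb1 and Axin2, against 33.4% of genes, and in cKO at 13 of 37, against 48.3%. The 11 members with a peak only in the cKO list were Wnt4, Wnt11, Fzd1, Fzd4, Fzd7, Fzd10, Ror1, Frzb, Lef1, Tcf7l1 and Tcf7l2 (15.6% of genes); those of Lef1 and Wnt11 were below a −log10 q of 5. All 3 marks were at no member in WT (0.0743% of genes) and at 7 in cKO, Wnt4, Wnt11, Fzd7, Fzd10, Lef1, Tcf7l1 and Tcf7l2 (3.88%). None of the 11 members with H3K27ac only in the cKO list passed the RNA test at P21. With 6.72% of all genes passing there, 11 genes are too few to read anything from this.

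Over the 18 members read from end to end, H3K4me3 peaks were at all 18 in both genotypes (63.7% and 65.4% of genes in this window), H3K27ac at 6 in WT and 14 in cKO (36.1% and 51.2%) and H3K27me3 at 2 in WT and 11 in cKO (4.35% and 16.9%). The WT pair were Wnt10a and Lgr5. The 9 with H3K27me3 only in the cKO list were Wnt5a, Wnt7b, Fzd2, Fzd6, Lrp5, Sfrp1, Rspo2, Rspo3 and Ccnd1 (12.6% of genes). Fzd2, whose RNA rose, and Ccnd1, whose RNA fell, thus both had H3K27me3 and H3K27ac only in the cKO list; within that list their strongest H3K27me3 peaks had the authors' fold enrichments of 12.6 and 9.02. The H3K27ac peak of Ccnd1 had a −log10 q of 3.59 and is lost when an overlap of 200 bases is asked for. With a 5 kb window Ccnd1 had H3K27me3 in the WT list as well.

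**Figure D4:**
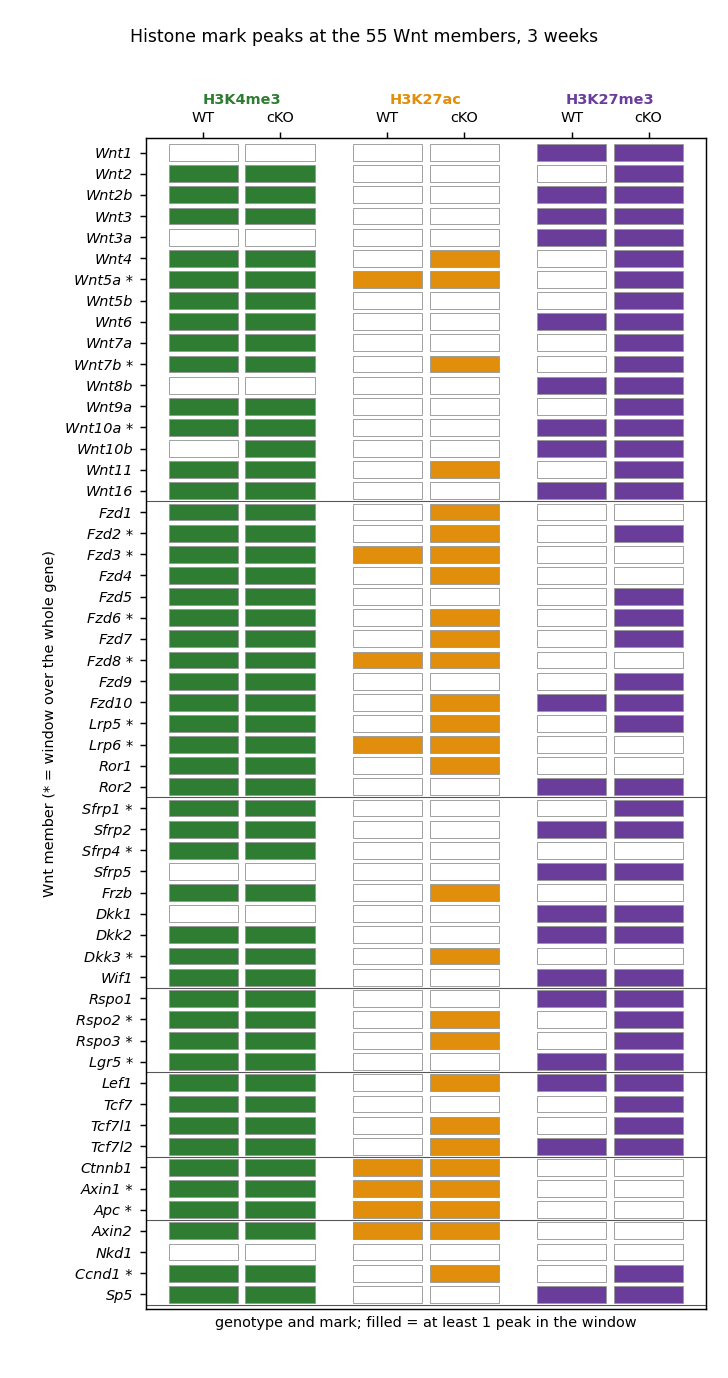
Presence of authors' peaks of H3K4me3 (green), H3K27ac (orange) and H3K27me3 (purple) at the 55 members, in rows by role and columns by genotype; a filled box means at least 1 peak in the window and an asterisk marks the 18 members read over the whole gene. The purple column is fuller in cKO than in WT (30 against 19 starts, 11 against 2 whole genes), and the orange column as well (13 against 2, 14 against 6), with 1 library per column.

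Wnt10b and Wnt8b, whose starts are printed above, were the ligands that rose at P21 and carried H3K27me3 in both genotypes. At Wnt10b the WT list had peaks from 330 to 738, from 947 to 1471 and from 2146 to 2415 bases past the start, and the cKO list had 1 peak of 4331 bases, from position -1482 to position 2848 counted from it, that spans all 3. An H3K4me3 peak from position -87 to 156 at the Wnt10b start was in the cKO list only, with a fold enrichment of 4.47 and a −log10 q of 4.45, so it is lost at a limit of 5. At Wnt8b the WT H3K27me3 peak began 998 bases past the start, which is lost when an overlap of 200 bases with the window is asked for, and the cKO peak ran from position -535 to 1891. Neither genotype had H3K4me3 at the listed Wnt8b start. The cKO libraries thus had more RNA of both genes and a longer H3K27me3 peak, in lists whose covered length for this mark was 13.0 Mb against 2.86 Mb in WT.

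**Figure D5:**
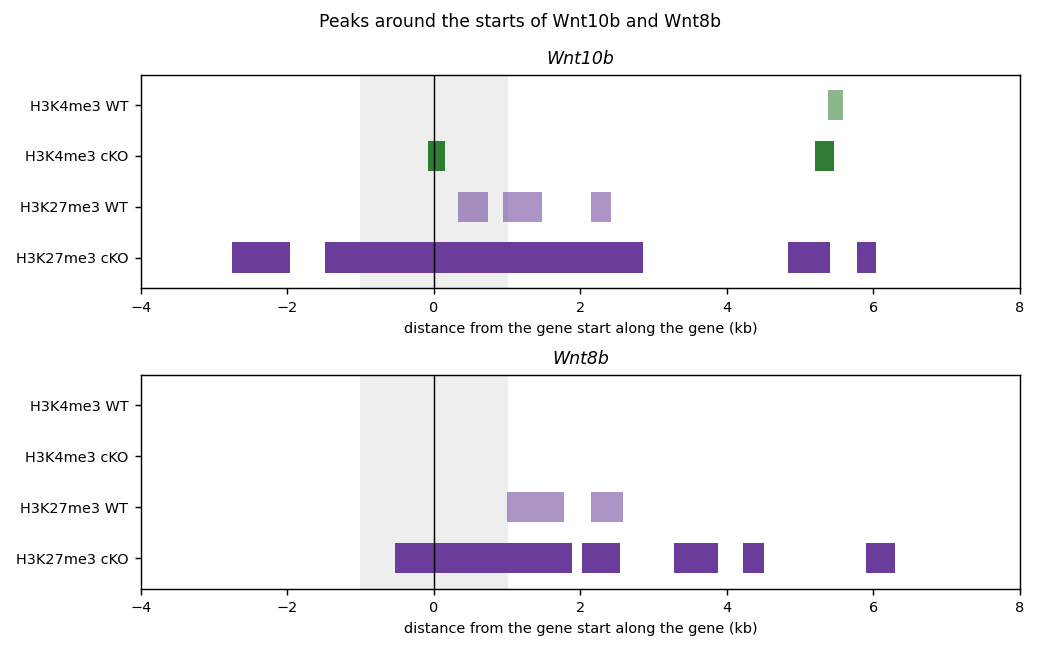
Positions of H3K4me3 (green) and H3K27me3 (purple) peaks from 4 kb before to 8 kb past the starts of Wnt10b and Wnt8b, with distance counted along the gene and the window of 1 kb on each side shaded; WT peaks are paler. In both genes the H3K27me3 peak of the cKO list covers the start, while the WT peaks begin 330 and 998 bases past it, and only Wnt10b in cKO has H3K4me3 at the start.

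The promoter stretches of the 37 members with a listed start were searched for the 4 TCF and LEF heptamers on both strands. At least 1 was found for 8 members, 21.6%, against 16.8% of 17492 protein-coding genes, and in 8 of 46 windows, 17.4%, against 14.7% of 21263 windows. The 8 were Wnt3, Wnt5b, Wnt11, Fzd7, Dkk1, Lef1, Tcf7l2 and Sp5. Sp5 and Dkk1 each held 2, and Sp5 is shown because it is a textbook target of β-catenin and its pair of matches, at positions -222 and -104, lies before a start with H3K4me3 and H3K27me3 peaks within 1 kb in both genotypes. The WT H3K27me3 peak of Sp5, like those of Wnt8b and Dkk2, is lost when an overlap of 200 bases with the window is asked for. The members' stretches were richer in G and C than those of all genes, with a median of 67.0% against 56.3%, and had a median of 24.5 CpG against 13.0. The Sp5 stretch is chr2:70474673-70474972 on the plus strand, with the matches in capitals, the first of them the reverse complement of a heptamer.
Sp5: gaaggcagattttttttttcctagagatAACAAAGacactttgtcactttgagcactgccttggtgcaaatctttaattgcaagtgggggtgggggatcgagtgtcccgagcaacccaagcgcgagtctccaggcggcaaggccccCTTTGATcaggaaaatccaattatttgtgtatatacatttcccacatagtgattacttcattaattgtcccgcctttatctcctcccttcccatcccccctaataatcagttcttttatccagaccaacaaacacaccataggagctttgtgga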

How the data were processed

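The submitters' processing notes name Salmon 1.0.0 and DESeq2 1.26.0 for RNA and Bowtie2 2.3.5.1 and MACS2 2.2.5 for ChIP-seq, with build GRCm38, while the peak files' headers give MACS 2.2.7.1. The deposited expression tables hold estimated counts per gene, which were rounded to whole numbers. The authors' deposited tables also give log2 changes, p-values and a mean level, used here only to check the columns. The deposited peak lists hold, per the file headers, narrow peaks called against input of the same genotype with a q-value limit of 0.01, each with a pileup signal, a fold enrichment (ratio to control) and a −log10 q; the score column deposited beside them was not read. No source used here says whether counting used strand.

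Genes were filtered with filterByExpr, scaled by TMM and tested within each age with robust quasi-likelihood fits in edgeR 4.0.16 (R 4.3.3), with Benjamini-Hochberg adjustment over all genes tested. Differences between ages came from 1 fit of all 10 libraries. SEs were derived from the log2 change and its F statistic. DESeq2 1.42.0, RLE (DESeq2's size factors) and upper-quartile scaling, no filter, a replicate block and leaving out each library were alternatives. The tests were also run on simulated counts with 100 genes changed 2-fold and 100 changed 4-fold. Of the calls, 39 of 197 were false at P21, 12 of 151 at E16.5 and 1 of 98 for the difference between ages. Of the 2-fold changes 63%, 59% and 26% were recovered, in the same order, and of the 4-fold changes 95%, 80% and 71%. Peaks counted where at least 1 base overlapped the window. Members and gene lists were chosen with earlier results of these data known. Genes named are members past the threshold at either age or in the difference between ages, the hem ligands Wnt2b, Wnt3a, Wnt5a and Wnt8b, Axin2 and Lef1, the member with the lowest p in each role where none passed, and up to 4 other pathway genes per comparison by adjusted p; others are stated as chosen after their values were seen or are listed as part of a count. At P21 2 libraries per genotype limit precision, and intervals cover the spread between these libraries only.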

Additional observations from a re-analysis of the deposited data

Results flagged for a closer look

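Nkd2, a feedback inhibitor that binds Dishevelled and a gene of the wider pathway list outside the 55 members, had cKO effects that differed between the ages in the fit of all 10 libraries. It was at 9.50 ± 0.594 CPM in WT and 15.1 ± 2.96 CPM in cKO at P21 (mean ± SD, n = 2 each; log2 change 0.66, SE 0.18, adjusted p = 0.0722) and at 29.6 ± 4.73 CPM in WT and 16.4 ± 1.28 CPM in cKO at E16.5 (n = 3 each; -0.85, SE 0.13, adjusted p = 0.105). The difference, P21 minus E16.5, was 1.48 (SE 0.24, adjusted p = 0.0332 by edgeR). The call was lost with a replicate block (1.46, adjusted p = 0.228). It was also lost without P21 cKO replicate 2 (adjusted p = 0.0953), P21 WT replicate 1 (adjusted p = 0.123), P21 WT replicate 2 (adjusted p = 0.136), E16.5 cKO replicate 2 (adjusted p = 0.0923) and each of E16.5 WT replicates 1, 2 and 3 (adjusted p = 0.057, 0.0708 and 0.0626). Neither age passed on its own, and the cause was not tested. With groups of 2 or 3 libraries no test for a single outlying library was made.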

How the results depend on the processing

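At P21, where 1169 genes, 4 members and 2 other pathway genes passed, the counts were 2149, 7 and 7 with no filter, 505 genes passed in the fit of all 10 libraries, and 1 pathway gene passed with a replicate block. Leaving out 1 library gave 431 to 2871 genes, 2 to 11 members and 1 to 11 pathway genes. At E16.5, where 21 genes and no member passed, DESeq2 called 1066 genes, 7 members and 8 pathway genes, no filter gave 129, 1 and 1, the joint fit 178, 1 and 1, and the replicate block 0 genes; leaving out 1 library gave 0 to 15 genes and 0 to 1 members. For the difference between ages, where 221 genes and no member passed, 358 genes and 1 member passed with no filter, 1159 and 5 in DESeq2, 1 member with RLE scaling and 1 gene with the replicate block, and leaving out 1 library gave 7 to 612 genes and 0 to 1 members. Between the ages in WT it gave 9295 to 11738 genes and 24 to 38 members. The cause of these shifts was not tested.

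The sign of Lef1 at P21 turned with upper-quartile scaling (0.049), and leaving out 1 library gave -0.32 to 0.25. That of Wnt8b at E16.5 turned with the replicate block (-0.59), and leaving out 1 library gave -0.21 to 0.85. At E16.5 the same range was -0.55 to 0.49 for Wnt3a, -0.60 to 0.091 for Wnt5a, -0.74 to 0.064 for Lef1 and -0.40 to 0.17 for Axin2, whose highest values were those without cKO replicate 1. The difference of Lef1 between ages ran from -0.089 (without E16.5 cKO replicate 1) to 0.71. Whether the replicate numbers pair the libraries cannot be told from these data. Correlations of same-numbered libraries' deviations were 0.020 at P21, where 2 libraries per group give 1 value with its sign mirrored. At E16.5 they were -0.49 to -0.02, against -0.17 to 0.36 for differently numbered libraries. Counts of members with peaks stayed within 1.5 times of those reported under all 36 combinations of count and setting (a 5 kb window, a −log10 q of at least 5, 200 bases of overlap).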
